A study of Mus musculus with 6 samples.

Results

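The Notch receptors Notch1, Notch2, Notch3 and Notch4, the ligands Jag1, Jag2 and Dll1 and the target genes Hes1, Hey1 and Heyl are 10 genes, chosen by symbol from a deposited table of 54532 genes, and each of the 10 had a row there. RNA of mouse samples labelled lung was sequenced in 6 libraries: 3 labelled aged, from mice of 18 months, and 3 labelled young, from mice of 3 months. The design asks which transcripts differ with age. Nothing in the sources used here gives strain, sex or treatment or says that each library is a different mouse. A p-value here therefore reflects library-to-library spread, which could be technical. Levels are in FPKM, a read count divided by gene length and by library depth. Comparisons between genes rest on the deposited gene lengths, which exceed the longest coding transcript unevenly. For Notch1 the deposited length is 14232 bases and that transcript has 9488, and for Notch3 they are 8044 and 8016. Libraries labelled aged held 16649061 to 16906850 recovered reads, and libraries labelled young 17266815 to 17456715.

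The contents of the libraries went against the tissue label. Of 16 lung epithelial markers, 12 were below 1 FPKM in all 6 libraries, and the alveolar gene Sftpd and the airway gene Scgb3a2 were listed at 0 throughout. All 12 endothelial markers were below 1 FPKM in all 6 libraries, as were 7 of 10 markers of mural cells, the pericytes and smooth muscle around vessels. Of 10 leukocyte markers, 9 were below 1 FPKM in all 6 libraries. By contrast, 6 of 10 mesenchymal markers and all 8 proliferation markers reached at least 10 FPKM throughout. The mesenchymal markers Dcn, Lum and Thy1 stayed below 1 FPKM in all 6 libraries. Kidney markers, 12 in number, summed to 134 and 26.8 FPKM in replicates 1 and 3 labelled young, mostly Kap at 116 and 21.9 FPKM. By comparison, the sum was 0.872 FPKM in replicate 2 labelled young and 1.19 to 1.99 FPKM in the libraries labelled aged. Umod, Slc34a1 and Miox were also highest in replicates 1 and 3 labelled young. Of the 12 kidney markers, 6 stayed below 1 FPKM in all 6 libraries. Several sums differed by group. Lung epithelial markers summed to 96.7 to 105 FPKM in libraries labelled aged, against 50.4 to 53.3 FPKM in libraries labelled young, mostly Pdpn. Of 5 tested, Pdpn was higher and 1 was lower, Hopx at 5.97 FPKM in libraries labelled aged and 10.2 FPKM in those labelled young. Leukocyte markers, mostly Cd68, summed to 17.5 to 18.4 FPKM in libraries labelled aged, against 7.32 to 8.78 FPKM in libraries labelled young. Of 3 tested leukocyte markers, 2 were higher. Proliferation markers summed to 549 to 569 FPKM in libraries labelled aged, against 464 to 469 FPKM in libraries labelled young, with 6 of 8 higher and Mki67 lower. Mesenchymal markers summed to 1828 to 1933 FPKM in libraries labelled aged, against 1671 to 1707 FPKM in libraries labelled young, with 2 higher and 4 lower, among them Fn1 at 1.82-fold higher and Col3a1 at 3.24-fold lower. Beside these counts, 27.7% of all tested genes were higher and 32.3% lower in the test described below. The part of these marker lists in the differences given below was not tested.

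Notch receptors sit in the cell membrane and are activated by Jagged or Delta ligands on a touching cell. Metalloproteases and then gamma-secretase cut the bound receptor, and the freed intracellular part enters the nucleus, where it joins Rbpj and a Mastermind protein and switches on genes of the Hes and Hey families, which encode repressors. In the lung the pathway is known for setting airway cell fates and for its roles in endothelium and in vascular mural cells, where Notch4 and Notch3 are best known.

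Start regions are shown for Notch3, Notch4 and Jag2 as examples of genes whose groups did not overlap and whose windows differ widely in CpG content. Each is the RefSeq window (GRCm38.p6, the assembly called mm10) of 250 bases before to 50 bases after a RefSeq start site, and capitals mark CpG dinucleotides. The lines below run 5′ to 3′ on the strand of the gene.
Notch3, chr17:32166841-32167140, minus strand: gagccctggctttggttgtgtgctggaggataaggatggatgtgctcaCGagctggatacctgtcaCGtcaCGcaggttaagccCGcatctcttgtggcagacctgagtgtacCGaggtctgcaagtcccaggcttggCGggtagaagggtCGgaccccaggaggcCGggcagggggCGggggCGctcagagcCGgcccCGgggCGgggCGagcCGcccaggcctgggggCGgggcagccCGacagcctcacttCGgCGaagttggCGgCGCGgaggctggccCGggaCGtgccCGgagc
Notch4, chr17:34564045-34564344, plus strand: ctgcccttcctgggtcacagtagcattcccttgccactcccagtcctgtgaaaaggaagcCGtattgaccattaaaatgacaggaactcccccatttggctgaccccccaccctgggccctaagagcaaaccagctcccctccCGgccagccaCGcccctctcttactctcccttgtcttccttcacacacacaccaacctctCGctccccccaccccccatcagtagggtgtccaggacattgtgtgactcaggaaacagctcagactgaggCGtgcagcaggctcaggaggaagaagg
Jag2, chr12:112929446-112929745, minus strand: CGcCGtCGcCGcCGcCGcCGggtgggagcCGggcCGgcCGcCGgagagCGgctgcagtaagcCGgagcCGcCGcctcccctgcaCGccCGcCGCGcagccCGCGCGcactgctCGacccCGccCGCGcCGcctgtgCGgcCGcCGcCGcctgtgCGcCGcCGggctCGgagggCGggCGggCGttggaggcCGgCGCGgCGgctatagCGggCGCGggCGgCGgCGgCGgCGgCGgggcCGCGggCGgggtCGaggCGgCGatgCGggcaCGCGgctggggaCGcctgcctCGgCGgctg

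Windows were found for 7 of the 10 genes, the receptors and ligands, 8 windows in all, since Dll1 had 2. The target genes Hes1, Hey1 and Heyl had no window, so their start regions were not searched for motifs. The Jag2 window held 63 CpG dinucleotides and a GC content of 86%, that of Notch3 25 and 70%, and that of Notch4 5 and 58.3%, where the median over all 32851 RefSeq windows was 7 and 52.7%. The other windows held 23 (Notch1), 41 (Notch2), 22 (Jag1), and 24 and 15 (Dll1). The core bound by Rbpj, TGGGAA on either strand, was in none of the 8 windows and in 25.6% of all windows. The E box CACGTG, a palindrome bound by Hey proteins among other factors, was in none of the 8 windows and in 7.15% of all. The N box CACNAG on either strand, a motif of Hes proteins, was in 42.5% of all windows. It lay at -204 and -159 from the Notch3 start site, at -247 from that of Notch2, at -108, -3 and -1 from that of Notch1, and at 14 after the second Dll1 start site, where the matches at -3 and -1 overlap each other. A match is a stretch of letters, and binding was not measured.

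Among the 10 genes, Hes1 and Notch3 rose, Jag2 and Hey1 fell, and Notch1 and Notch2 did not pass the test. Rose and higher, fell and lower speak of the libraries labelled aged. These 6 had at least 0.5 FPKM in at least 3 libraries and entered limma's test on log2(FPKM + 1) with Benjamini-Hochberg adjustment over all 15197 tested genes. Notch4, Heyl, Jag1 and Dll1 were below that filter. Over all tested genes 60.0% passed an adjusted p of 0.05, 27.7% higher and 32.3% lower, so that 4 of 6 is near the share of genes at large. The balance of directions over all genes depended on scaling, with 32.8% higher and 26.5% lower after median centring. The groups' values did not overlap for 5 of the 6, where 66.9% of all tested genes had no overlap. With both libraries holding kidney transcripts left out, a choice made after seeing the data that leaves 1 library labelled young, whose spread is then taken to be like that of the other group, 2 of the 6 passed, Hes1 and Hey1, where 41.0% of all tested genes did.

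**Figure D1:**
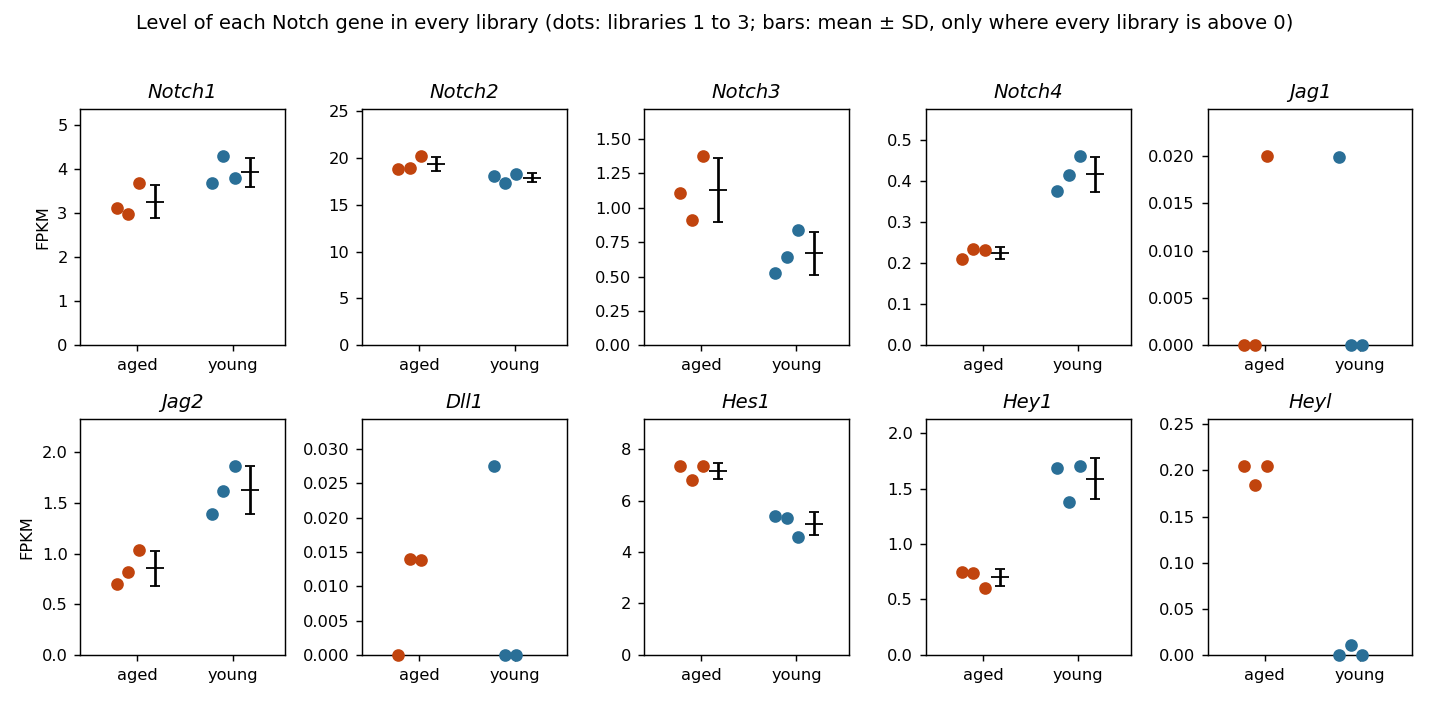
FPKM of each of the 10 genes (vertical axis, a separate linear scale from 0 in each panel) in the 3 libraries labelled aged (left) and the 3 labelled young (right); dots are libraries and bars the mean ± SD, drawn only where all 6 libraries are above 0. Hes1, Notch3 and Heyl sit higher in the libraries labelled aged and Notch4, Jag2 and Hey1 lower, with no overlap, while Jag1 and Dll1 stay under 0.03 FPKM.

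Notch2 was by far the most abundant receptor transcript in all 6 libraries. Notch2 (ENSMUSG00000027878, chromosome 3, 98013527 to 98150361, plus strand, mm10) had 18.8, 19.0 and 20.2 FPKM in the libraries labelled aged and 18.1, 17.4 and 18.3 FPKM in those labelled young. The groups did not overlap, yet the gap was narrow. The log2 fold change was 0.10 ± 0.04 SE (limma adjusted p = 0.0632), and the mean over 6 libraries exceeded that of 78.7% of tested genes. The call depended on scaling and model: limma adjusted p was 0.00995 after median centring, 0.0489 on the TPM scale and 0.0296 with voom. Limma adjusted p was 0.0718 after quantile normalization and 0.0699 to 0.185 leaving out single libraries. The fold change was above 0 in each.

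Notch1, a broadly expressed receptor, was the next receptor in level. Notch1 (ENSMUSG00000026923, chromosome 2, 26457903 to 26516663, minus strand) had 3.11, 2.99 and 3.69 FPKM in the libraries labelled aged and 3.68, 4.29 and 3.81 FPKM in those labelled young. Replicate 3 labelled aged lay within the range of the libraries labelled young, so the groups overlapped. The log2 fold change of -0.21 ± 0.08 SE did not pass (limma adjusted p = 0.0636), and without replicate 3 labelled aged it was -0.28 with limma adjusted p = 0.0217. With voom limma gave adjusted p = 0.00431. Notch1 stayed short of the threshold in 17 of 20 alternatives, among them median centring (limma adjusted p = 0.169) and quantile normalization (0.138). For this gene 2385 reads were recovered in the libraries labelled aged and 2899 in those labelled young. Scaled by library size, their ratio was 0.831 (exact 95% counting interval 0.787 to 0.877). Such intervals cover counting error only and leave out the spread between libraries.

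Notch3, a receptor known from vascular mural cells, was low in level and rose. Notch3 (ENSMUSG00000038146, chromosome 17, 32120820 to 32166880, minus strand) had 1.11, 0.909 and 1.37 FPKM in the libraries labelled aged, against 0.527, 0.644 and 0.835 FPKM in those labelled young. The lowest library labelled aged lay just above the highest labelled young. The ratio of means was 1.69 and the log2 fold change on the FPKM + 1 scale, which understates changes of low genes, was 0.35 ± 0.12 SE (limma adjusted p = 0.0376). That call was lost at adjusted p = 0.0825 without replicate 1 labelled aged, 0.106 without replicate 3 labelled aged, 0.106 without replicate 1 labelled young, 0.0900 without replicate 2 labelled young and 0.143 without both libraries holding kidney transcripts. In these fits, which hold fewer libraries, the log2 fold change was 0.36, 0.27, 0.29, 0.34 and 0.37 in the same order. Reads numbered 153, 124 and 190 in the libraries labelled aged and 73, 90 and 116 in those labelled young. The long noncoding gene Gm17276 overlaps Notch3 on the opposite strand, with 31, 31 and 26 reads in the libraries labelled aged and 30, 19 and 11 in those labelled young, and without strand information reads of the overlap cannot be told apart. The mural cell list summed to between 89.6 and 93.9 FPKM in the libraries labelled aged and between 66.8 and 69.2 FPKM in those labelled young. Most of the sum came from Cspg4 and Pdgfrb, the 2 higher of its 3 tested genes. The other, Des, was lower, at 10.2 FPKM in the libraries labelled aged and 11.6 FPKM in those labelled young. The defining smooth muscle genes Acta2 and Myh11 reached at most 0.163 and 0.0689 FPKM in any library. The part of the mural cell list in the Notch3 difference was not tested, and in bulk samples more cells of a type and more RNA per cell cannot be told apart.

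Notch4, the receptor known from endothelium, was the least abundant and was lower in the libraries labelled aged. Notch4 (ENSMUSG00000015468, chromosome 17, 34564268 to 34588503, plus strand) had 0.209, 0.234 and 0.231 FPKM in the libraries labelled aged, against 0.375, 0.414 and 0.460 FPKM in those labelled young. The groups were well apart, though every value was under the 0.5 FPKM filter. Recovered reads were 29, 32 and 32 in the libraries labelled aged and 52, 58 and 64 in those labelled young, and the ratio of the sums was 0.540 (exact 95% counting interval 0.415 to 0.698). Without a filter limma gave a log2 fold change of -0.21 ± 0.05 SE at adjusted p = 0.0353, where 27.7% of 33676 genes passed. Voom on genes with at least 10 reads in all, a choice made after seeing the data, gave -0.88 ± 0.21 SE at adjusted p = 0.00203, where 50.0% of 22361 genes passed. No endothelial marker passed the filter, and 7 of the 12 overlapped between the groups. Their sum was 1.46 to 1.59 FPKM in libraries labelled aged, against 0.567 to 0.932 FPKM in libraries labelled young, and the defining markers Pecam1 and Cdh5 were at most 0.322 and 0.374 FPKM. The part of these cells in the Notch4 difference was not tested.

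Summed over the 4 receptors, the level was 24.0 ± 1.34 FPKM in the libraries labelled aged and 22.9 ± 0.402 FPKM in those labelled young (SD, n = 3 each), with overlapping ranges. Notch2 made up 80.8 ± 1.46% of that sum in the libraries labelled aged and 78.1 ± 1.68% in those labelled young. The Notch1 share was 13.6 ± 0.792% in the libraries labelled aged and 17.1 ± 1.53% in those labelled young. Notch1 was 2.93 ± 0.317 times the level of Notch3 in the libraries labelled aged and 6.07 ± 1.32 times in those labelled young. Notch3 was 5.04 ± 1.06 times the level of Notch4 in the libraries labelled aged and 1.59 ± 0.207 times in those labelled young. These shares and ratios rest on the deposited gene lengths, describe mixtures of transcripts and carry no test. With the length of the longest coding transcript, Notch1 would stand higher relative to Notch3 in both groups.

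**Figure D2:**
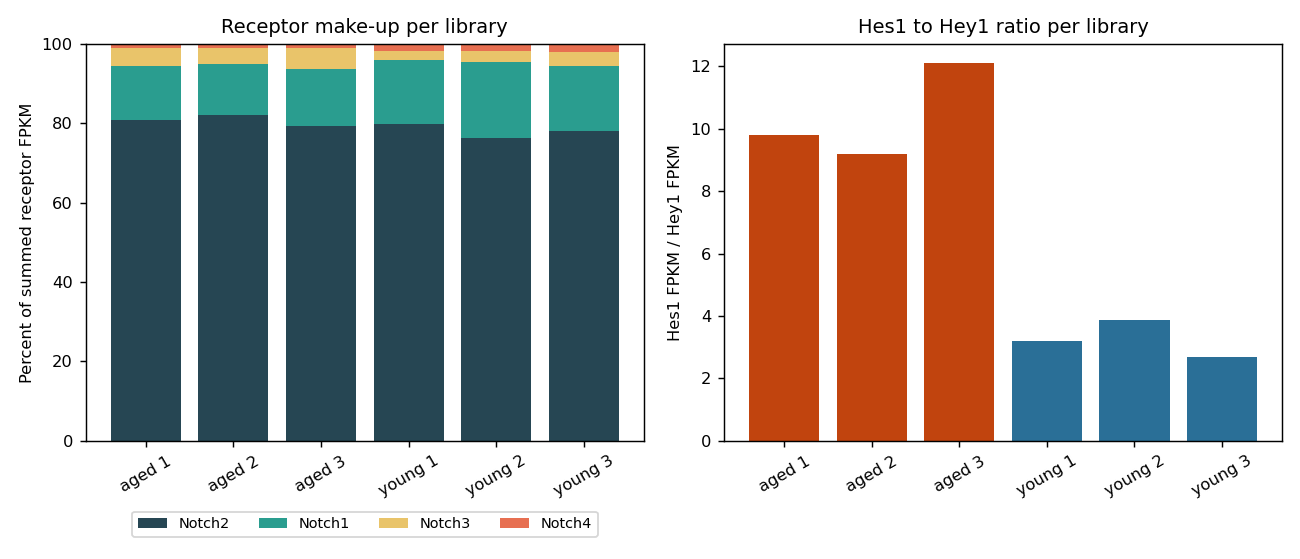
Left, percent of summed receptor FPKM (vertical axis) from Notch2, Notch1, Notch3 and Notch4 in each library, with the libraries labelled aged left of those labelled young; right, the ratio of Hes1 to Hey1 FPKM in the same libraries. Notch2 holds 76.4% to 82.1% of the receptor sum in every library, and the Hes1 to Hey1 ratio is 9.19 to 12.1 in libraries labelled aged, against 2.69 to 3.86 in libraries labelled young.

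Of Jag1, Jag2 and Dll1, Jag2 alone had more than 4 reads over the 6 libraries, and it fell. Jag2 (ENSMUSG00000002799, chromosome 12, 112907819 to 112929776, minus strand), a Jagged ligand, had 0.701, 0.821 and 1.04 FPKM in the libraries labelled aged and 1.39, 1.61 and 1.86 FPKM in those labelled young. All 3 libraries labelled aged lay below all 3 labelled young. The level was 1.90-fold lower in the libraries labelled aged by means, with a log2 fold change of -0.50 ± 0.11 SE (limma adjusted p = 0.00574). Without both libraries holding kidney transcripts the log2 fold change was the same at -0.50 and adjusted p was 0.0569. Recovered reads summed to 305 in the libraries labelled aged and 586 in those labelled young.

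Jag1 and Dll1, ligands that are widely used in epithelia and vessels, had at most 2 reads in any library. Jag1 (ENSMUSG00000027276, chromosome 2, 137081456 to 137116644, minus strand) had 0, 0 and 2 reads in the libraries labelled aged and 2, 0 and 0 in those labelled young. Dll1 (ENSMUSG00000014773, chromosome 17, 15367354 to 15376872, minus strand) had 0, 1 and 1 reads in the libraries labelled aged and 2, 0 and 0 in those labelled young. In a library at 0, the limit that a count of 0 allows, 3 reads, is at most 0.0304 FPKM for Jag1 and 0.0419 FPKM for Dll1, so a difference was not detectable at this depth. The other ligands on a list of 5 (Dll3, Dll4, Dlk1, Dlk2 and Dner) had 6 to 110 reads over the 6 libraries, and none passed the filter. Dll4 and Dner are given here after their values were seen. Dll4, the endothelial Delta ligand, had 12, 6 and 9 reads in the libraries labelled aged and 19, 18 and 12 in those labelled young. Dner, a Delta- and Notch-like protein of neurons, had 27, 20 and 30 reads in the libraries labelled aged and 18, 9 and 6 in those labelled young, with no overlap between the groups.

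The target genes differed in direction, with Hes1 and Heyl higher and Hey1 lower in the libraries labelled aged. Hes1 (ENSMUSG00000022528, chromosome 16, 30064384 to 30067796, plus strand) encodes a repressor that keeps progenitor cells from differentiating and was the most abundant of the targets. It had 7.34, 6.80 and 7.34 FPKM in the libraries labelled aged, against 5.39, 5.32 and 4.58 FPKM in those labelled young. Every library labelled aged was above every library labelled young. Hes1 rose 1.41-fold by means, with a log2 fold change of 0.42 ± 0.07 SE (limma adjusted p = 0.00149), and passed in all 20 alternatives with adjusted p between 0.000341 and 0.0213.

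Hey1 (ENSMUSG00000040289, chromosome 3, 8663359 to 8667256, minus strand), a repressor known from developing vessels and heart, had 0.748, 0.740 and 0.606 FPKM in the libraries labelled aged, against 1.69, 1.38 and 1.70 FPKM in those labelled young. The groups were clearly separate. Hey1 was 2.28-fold lower in the libraries labelled aged, with a log2 fold change of -0.61 ± 0.09 SE (limma adjusted p = 0.00109), and passed in all 20 alternatives. Its reads numbered 117 in the libraries labelled aged and 269 in those labelled young, and their scaled ratio was 0.439 (exact 95% counting interval 0.350 to 0.548). The ratio of Hes1 to Hey1 within a library was 10.4 ± 1.54 in the libraries labelled aged and 3.25 ± 0.590 in those labelled young (SD, n = 3 each), as the plot of receptor shares and target ratios shows.

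Heyl, the Hey-like repressor known as a Notch3 target in smooth muscle, was found almost only in the libraries labelled aged, at few reads. Heyl (ENSMUSG00000032744, chromosome 4, 123233556 to 123249875, plus strand) had 18, 16 and 18 reads in the libraries labelled aged, against 0, 1 and 0 in those labelled young. In FPKM these are 0.205, 0.185 and 0.205 in the libraries labelled aged, against 0, 0.0113 and 0 in those labelled young. Scaled by library size, the ratio of summed reads was 52.5 (exact 95% counting interval 9.02 to 2113). Heyl was under the filter, and limma without a filter gave adjusted p = 0.000816, where 27.7% of genes passed. Of 33676 genes in that fit, 4814 were higher and 4516 lower. More genes at large had a read in the libraries labelled aged, 26703 to 26925 per library, against 24074 to 24363 in those labelled young. The level in the libraries labelled aged stayed under that of Hes1 at 7.16 FPKM and of Hey1 at 0.698 FPKM on average.

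**Figure D3:**
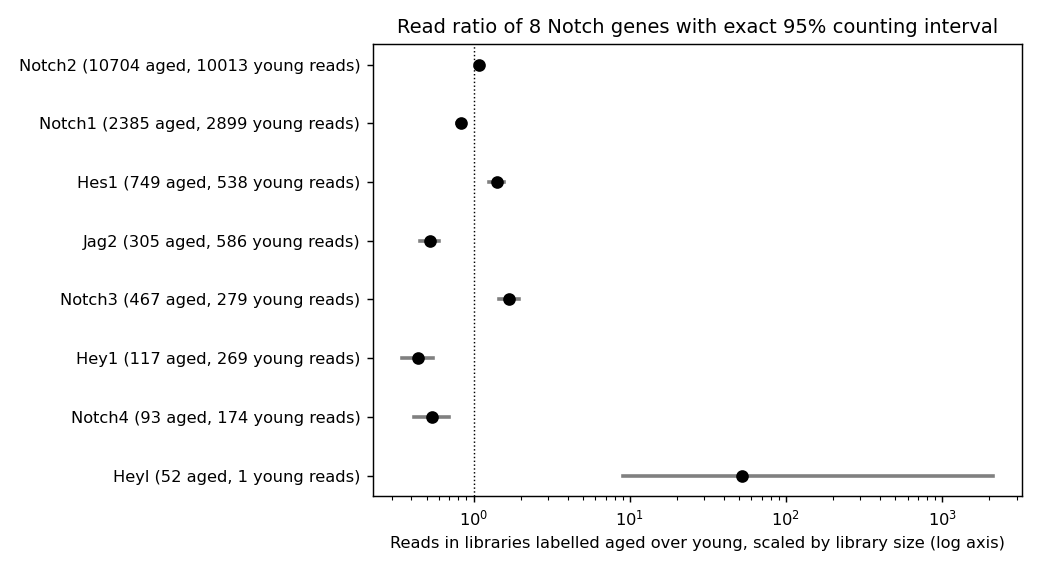
Ratio of recovered reads in the 3 libraries labelled aged over the 3 labelled young, scaled by library size (horizontal log axis), for the 8 genes with more than 3 reads in a group; lines are exact 95% intervals for counting error only, and the dotted line marks equal levels. Heyl stands at 52.5 with the widest interval, Notch2 at 1.08 and Hey1 at 0.439.

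Ordered by mean FPKM, the genes in the libraries labelled aged ran Notch2, Hes1, Notch1, Notch3, Jag2, Hey1, Notch4, Heyl, Dll1 and Jag1. Notch3 and Jag2, Jag2 and Hey1, and Dll1 and Jag1 had overlapping ranges there. In the libraries labelled young the order was Notch2, Hes1, Notch1, Jag2, Hey1, Notch3, Notch4, Dll1, Jag1 and Heyl. Jag2 and Hey1, Dll1 and Jag1, and Jag1 and Heyl overlapped in those libraries. On the deposited lengths Notch3 thus ranked above Jag2 and Hey1 in the libraries labelled aged and below both in those labelled young. The deposited length of Jag2 is 6965 bases, where its longest coding transcript has 5106, against 8044 and 8016 for Notch3. The order of Notch3 and Jag2 in the libraries labelled aged therefore depends on the length used.

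Of 10 other genes of the Hes and Hey group, 4 were tested, of which 3 fell (Hes7, Bhlhe41 and Helt) and 0 rose. After median centring 3 fell and 1 rose. Of all tested genes, 32.3% fell and 27.7% rose, against 26.5% and 32.8% after median centring. Hes7, a repressor of the segmentation clock in embryos, had 2.28 ± 0.314 FPKM in the libraries labelled aged and 6.09 ± 0.651 FPKM in those labelled young (SD, n = 3 each here and below; log2 fold change -1.11 ± 0.10 SE, limma adjusted p = 0.000107). On the opposite strand 9130213A22Rik overlaps Hes7 and held 29.5% as many reads. Helt, a Hes-related repressor of neurons, had 0.300 ± 0.0585 FPKM in the libraries labelled aged and 1.13 ± 0.286 FPKM in those labelled young. It was under the filter's level in every library labelled aged and entered the test through those labelled young, and limma without a filter gave adjusted p = 0.00914. Bhlhe41, a related clock repressor, was 1.23-fold lower, and Bhlhe40, its partner, had 15.3 ± 1.15 FPKM in the libraries labelled aged and 13.9 ± 0.220 FPKM in those labelled young without passing (limma adjusted p = 0.0902). Nrarp, a feedback inhibitor that Notch signalling induces and that is named after its values were seen, was listed at 0 in all 6 libraries.

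Of the proteases and gamma-secretase subunits that cut Notch receptors, 5 of 9 tested genes fell and 2 rose, 7 of 9 in all, where 60.0% of all tested genes passed. After median centring 3 fell and 2 rose. Furin, which cleaves the receptor precursor, was 1.62-fold lower, at 11.1 ± 0.305 FPKM in the libraries labelled aged and 17.9 ± 0.0924 FPKM in those labelled young (log2 fold change -0.65 ± 0.03 SE, limma adjusted p = 1.54e-05). Adam10, the main protease of ligand-bound receptor, rose 1.17-fold, and Adam17 was 1.07-fold lower at limma adjusted p = 0.0469, with a range over the alternatives of 0.0301 to 0.512. In gamma-secretase, a catalytic subunit gene, Psen2, was 1.60-fold lower, at 1.53 ± 0.180 FPKM in the libraries labelled aged and 2.45 ± 0.217 FPKM in those labelled young. The subunits Aph1a and Aph1b were 1.11-fold and 1.61-fold lower. Ncstn and Psenen, which encode further subunits, did not pass, with log2 fold changes of -0.03 ± 0.05 and 0.08 ± 0.06 SE, and Ncstn overlaps the more abundant Copa on the other strand. Adam17 overlaps Iah1, which held 16.8% as many reads, in the same way.

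Glycosyltransferases that modify the receptors' EGF-like repeats were mixed, with 3 of 6 tested genes lower and 2 higher. After median centring 1 was lower and 2 were higher. Of all tested genes, 32.3% were lower and 27.7% higher, against 26.5% and 32.8% after median centring. Pofut1, which adds the O-fucose that ligand binding needs, was 1.66-fold lower, at 7.53 ± 0.457 FPKM in the libraries labelled aged and 12.5 ± 0.366 FPKM in those labelled young (log2 fold change -0.66 ± 0.05 SE, limma adjusted p = 6.43e-05). Lfng, the Fringe enzyme that extends that fucose, rose 1.15-fold to 12.9 ± 0.650 FPKM in the libraries labelled aged. The O-glucosyltransferase genes listed as Kdelc1 and Kdelc2 (Poglut2 and Poglut3) differed in direction, the first 1.13-fold lower and the second 1.33-fold higher. The Kdelc1 call was lost after median centring (limma adjusted p = 0.116), after quantile normalization (0.101) and under several other alternatives.

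In the nuclear complex, the DNA-binding factor rose while several corepressors fell. Rbpj, which places the Notch complex on DNA, had 10.5 ± 0.103 FPKM in the libraries labelled aged and 7.54 ± 0.344 FPKM in those labelled young (log2 fold change 0.43 ± 0.04 SE, limma adjusted p = 0.000198). Of 19 tested genes, 3 rose, 11 fell and 5 did not pass, and after median centring 4 rose and 10 fell. The shares over all tested genes were 27.7% higher and 32.3% lower, and 32.8% and 26.5% after median centring. Snw1, a cofactor of Rbpj, rose 1.33-fold. The Mastermind coactivators, given here after their values were seen, went in both directions: Maml2 was 1.79-fold higher, Maml3 was 1.33-fold lower (limma adjusted p = 0.00495), and Maml1 was 1.13-fold lower without passing (limma adjusted p = 0.0504). Among the lower genes was Tle2, a Groucho corepressor that Hes proteins recruit, at 0.551 ± 0.0828 FPKM in the libraries labelled aged and 2.64 ± 0.110 FPKM in those labelled young, 4.79-fold lower. Spen and Ncor1, corepressors that bind Rbpj, were 1.74-fold and 1.56-fold lower, and Hdac1, Hdac2 and Ctbp1 were 1.16-fold, 1.32-fold and 1.21-fold lower. On the opposite strand Zbtb17 overlaps Spen with 18.7% as many reads and Ttc19 overlaps Ncor1 with 17.1% as many. Kat2a, an acetyltransferase, had a log2 fold change of 0.05 ± 0.04 SE and did not pass.

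Among genes of ligand endocytosis and receptor turnover, 11 of 18 tested genes fell, 3 rose and 4 did not pass. After median centring 9 fell and 3 rose. Over all tested genes 32.3% fell and 27.7% rose, against 26.5% and 32.8% after median centring. Neurl1b, a ubiquitin ligase of Notch ligands, was 1.73-fold lower, at 5.75 ± 0.243 FPKM in the libraries labelled aged and 9.93 ± 0.538 FPKM in those labelled young (log2 fold change -0.69 ± 0.05 SE, limma adjusted p = 6.12e-05). Mib2, another such ligase, was 1.40-fold lower, and Dtx3 of the Deltex family 1.37-fold lower. The endocytic adaptors split, with Epn1 1.34-fold higher and Epn2 1.38-fold lower. Nedd4, an abundant ubiquitin ligase, was 1.18-fold lower at 125 ± 5.35 FPKM in the libraries labelled aged and 148 ± 3.32 FPKM in those labelled young. Dtx3l, which Parp9 overlaps on the other strand with 89.3% as many reads, had 11.1 ± 0.147 FPKM in the libraries labelled aged and 11.1 ± 0.328 FPKM in those labelled young, and Neurl2 rose 1.24-fold, a call lost without replicate 1 labelled aged (limma adjusted p = 0.0771) among others. Neurl2 overlaps the far more abundant Ctsa on the other strand.

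Over all 72 other pathway genes, 56 were tested, of which 10 rose, 33 fell and 13 did not pass, with a median log2 fold change of -0.18 where that of all tested genes was -0.03. Over all tested genes 27.7% rose and 32.3% fell. After median centring 12 of the 56 rose and 26 fell, where 32.8% of all tested genes rose and 26.5% fell. The 56 include Helt, which entered through the libraries labelled young.

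**Figure D4:**
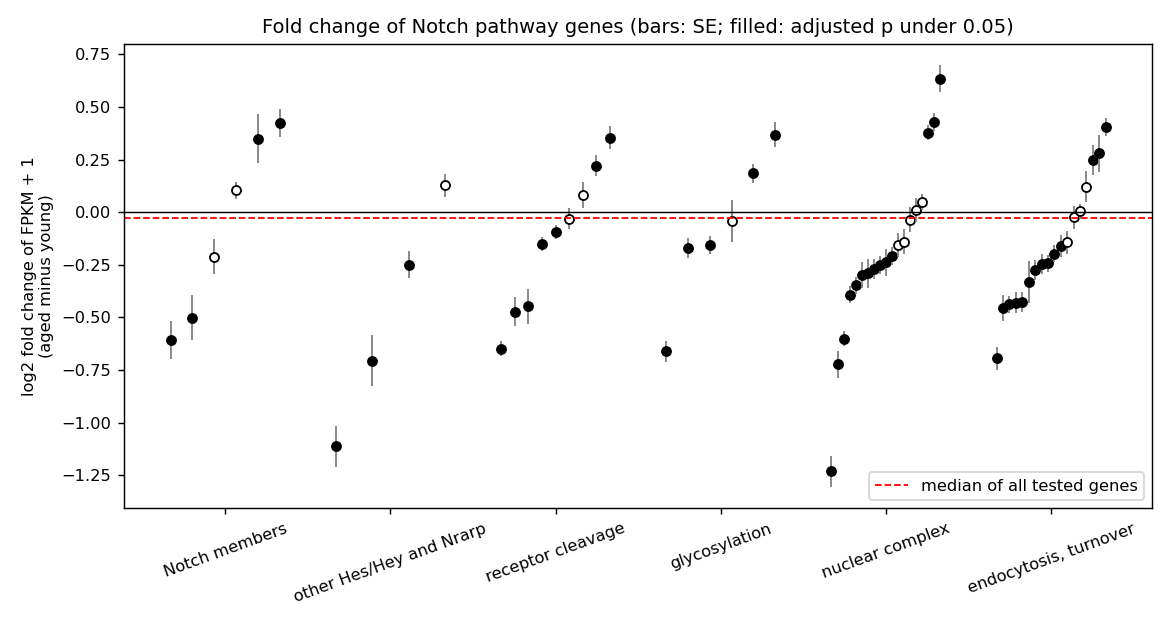
Log2 fold change on the FPKM + 1 scale, aged minus young (vertical axis), of every tested gene of the Notch members and of 5 further pathway lists; dots are genes, filled where the limma adjusted p was under 0.05, bars are SE and the dashed line is the median of all tested genes. Notch members fall on both sides of 0, between -0.61 and 0.42, and the nuclear and turnover lists hold more filled dots below 0 than above it. Of all tested genes, 32.3% were lower and 27.7% higher.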

How the data were processed

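Per the labels' protocols, TRIzol lysates of lung gave total RNA, and read pairs from an Illumina NovaSeq were aligned with HISAT2 2.0.5. Per the submitters' processing notes, mm10 was the genome. Which program and annotation were used for counting, and whether strand was used, was not given in the sources used here. The authors deposited FPKM values for 54532 genes, which multiplied by gene length are whole multiples of a single step per library (100% of values within 0.01 of a whole read), so reads were recovered by rounding.

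Groups follow the age label. Libraries of the same group differed beyond sampling noise (chi-square per degree of freedom 2.22 to 4.79, against at least 74.1 between groups). Each library was counted as 1 sample, though such spread cannot show that libraries come from different mice. The scale for testing was log2(FPKM + 1). Genes with at least 0.5 FPKM in at least 3 libraries were fitted with limma 3.58.1 (R 4.3.3, linear model on group, mean-variance trend, 2-sided, Benjamini-Hochberg, threshold 0.05), and the fitting was tested on simulated data. Intervals used scipy 1.17.1 under Python 3.11.15.

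The members and lists were chosen with earlier results of these data known. Named genes are the members, the 4 tested genes of smallest p in each pathway list and any of its genes that average 10 FPKM or more in a group. Exceptions, chosen after their values were seen, are named as such, and some genes the rule names are not reported here. Alternatives were other pseudocounts, filters, scalings and limma settings, voom, a replicate block, leaving out libraries and a threshold of 0.01.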

Additional observations from a re-analysis of the deposited data

How the results depend on the processing

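Hes1 and Hey1 kept direction and call in all 20 alternatives, and no alternative turned the direction of a tested member. The count of members called was 4 and ran from 3 to 6 under the other settings. It moved to 8 of 8 with voom on genes with at least 10 reads, which tests more genes (50.0% of them called) and was chosen after seeing the data, though Heyl passed that filter through the libraries labelled aged, and to 2 of 6 without both libraries holding kidney transcripts, which leaves fewer libraries and called 41.0% of all tested genes. Across alternatives adjusted p ran from 0.00107 to 0.143 for Notch3, from 3.18e-05 to 0.0569 for Jag2, from 0.00995 to 0.185 for Notch2 and from 0.00431 to 0.183 for Notch1. Notch3 was not past the threshold without a filter (adjusted p = 0.105), after quantile normalization (0.0755) or at a threshold of 0.01.

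The replicate number did not pair the libraries, since deviations of libraries with the same number correlated at 0.00562, -0.00793 and 0.0192. With a replicate block 8441 of 15197 genes, 4 members and 40 of 56 other pathway genes were called, against 9115, 4 and 43 without it. For Ncstn and Dtx3l, both near no change, the log2 fold change turned sign: Ncstn at 0.035 with median centring and -0.081 to 0.00040 leaving out single libraries, and Dtx3l at -0.019 to 0.016 leaving out single libraries and -0.017 without both libraries holding kidney transcripts. The cause was not tested. At this depth Jag1 and Dll1, at 4 reads each over 6 libraries, allow no comparison.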
